A study of Mus musculus with 8 samples.

Results

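The late response of osteoblast progenitors to LAMZ was read from RNA sequencing of mouse cells kept for 14 days in osteogenic medium. LAMZ (locamidazole) is an aminoindazole derivative that the study picked in a screen for compounds acting on both muscle and bone cells. The comparison holds 4 of the 8 libraries of the series, 2 from control cells given the solvent DMSO and 2 from cells given 1 µM LAMZ. The libraries were chosen by the day and the treatment in their labels, and no measured value was used. Both groups grew in α-MEM with 10% serum. The medium held β-glycerophosphate (10 mM), dexamethasone (10 nM) and ascorbic acid, which drive osteoblasts to lay down and mineralize matrix, and LAMZ or DMSO was given again at the medium changes. The labels name the cells as MC3T3-E1, a clonal osteoblastic line from mouse calvaria, whereas the methods name cultured calvarial cells. No genotype or other agent separated the groups, and 1 dose was used. The other 4 libraries, from day 7 of the same protocol, share no sample with these and serve to show which changes were there earlier. The labels do not say that the libraries of a group came from separate cultures, so the p values measure the spread between these libraries, which may be technical.

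Expression was read as RPKM, the reads on a gene scaled to its length and to the mapped reads of its library, and changes were taken on log2(RPKM + 1). A change is given as the log2 value of LAMZ minus control ± its standard error, with 2 libraries in each group. It understates the fold of genes with low RPKM. A gene was called, and is said to have risen or fallen, at an adjusted p under 0.05 from limma over all 12514 genes that reached an RPKM of 1 in 2 or more of the 8 libraries. At day 14, 871 genes (6.96%) rose and 2007 (16.0%) fell, and the median change of all tested genes was −0.15. A change of at least 1 in size was reached by 303 of the genes that rose and 692 of those that fell. Of the genes that rose at day 14, 280 had also risen at day 7, 581 were not called there and 10 had fallen. Of those that fell at day 14, 764 had also fallen at day 7, 1231 were not called there and 12 had risen. For 20.1% of the tested genes the LAMZ libraries were both higher than either control library, and for 44.2% both lower. After rescaling the libraries to the same sum of RPKM, 473 genes rose and 5323 fell, and after centring on the median of the tested genes 1608 rose and 1249 fell. The balance of rises and falls therefore depended on the scaling between libraries, and the median of a gene list should be read against −0.15. Likewise, the counts of its members should be read against the 6.96% that rose and the 16.0% that fell. The sign of the median changed under at least 1 other scaling for 19 of the 53 lists with tested members, so counts of members are given beside it. With any 1 of the 4 libraries left out, 470 to 613 genes rose and 1033 to 1291 fell. Where a gene named with its p value for day 14 lost its call in this way, the p values without those libraries are given.

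Osteoblasts make a collagen-rich matrix, and this secretory work depends on amino acid supply and on the folding capacity of the endoplasmic reticulum (ER). ATF4, a transcription factor whose translation rises when the kinases of the integrated stress response are active, induces amino acid transporters, enzymes of serine and asparagine synthesis and tRNA synthetases, and it is also needed for osteoblast maturation. In cultures taken from calvaria, macrophages and other stromal cells grow beside osteoblasts, whereas a clonal line should hold none.

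The 4 libraries held 4520850 to 5832117 mapped reads, recovered from the RPKM values. Symbols of 7SL RNA, a short abundant RNA, made up 22.5% and 25.5% of the RPKM sum in control and 29.2% and 32.7% with LAMZ, and these symbols count in a scaling to the same sum. The 2 libraries of a group differed by more than sampling noise, with a chi-square per gene of 4.67 in control and 4.12 with LAMZ. The label was checked against marker lists. Osteoblast genes were present, among them Runx2 (9.4 and 10.6 RPKM in control and 10.7 and 12.6 with LAMZ) and Alpl (73.3 and 81.3 RPKM in control and 306 and 398 with LAMZ). Macrophage genes were present as well in the control libraries, where the RPKM of the 46 markers in the files summed to 1499 and 1503. Xist, which only cells with more than a single X chromosome transcribe, had 10.2 and 10.9 RPKM in control and 6.59 and 6.86 with LAMZ, and the Y-linked Ddx3y had 2.18 and 3.16 RPKM in control and 2.63 and 2.4 with LAMZ, so each library held RNA of both kinds. Reads of several genes named here may be shared with a gene that overlaps them on the genome, namely Xist with Tsix, Gapdh with Iffo1, Csf1r with Hmgxb3, Pth1r with Myl3, Dbp with Sphk2, Ctss with Hmgb1-ps5, and Slc13a5 and Anxa8 with unnamed gene models. Xist fell and the Y-linked genes Ddx3y and Eif2s3y were not called. Markers of red blood cells and of the muscle lineage were at or near 0, as none of the 9 erythroid genes in the files and none of the 12 myogenic regulators passed the filter. Of the lymphocyte and the neutrophil and mast cell markers, 1 of 20 and 1 of 18 passed it, the immunoglobulin gene Ighm, which rose, and the receptor Kit, which was not called. The shares of the tested members of each list that rose and fell were plotted for the lists with at least 5 tested members.

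**Figure D1:**
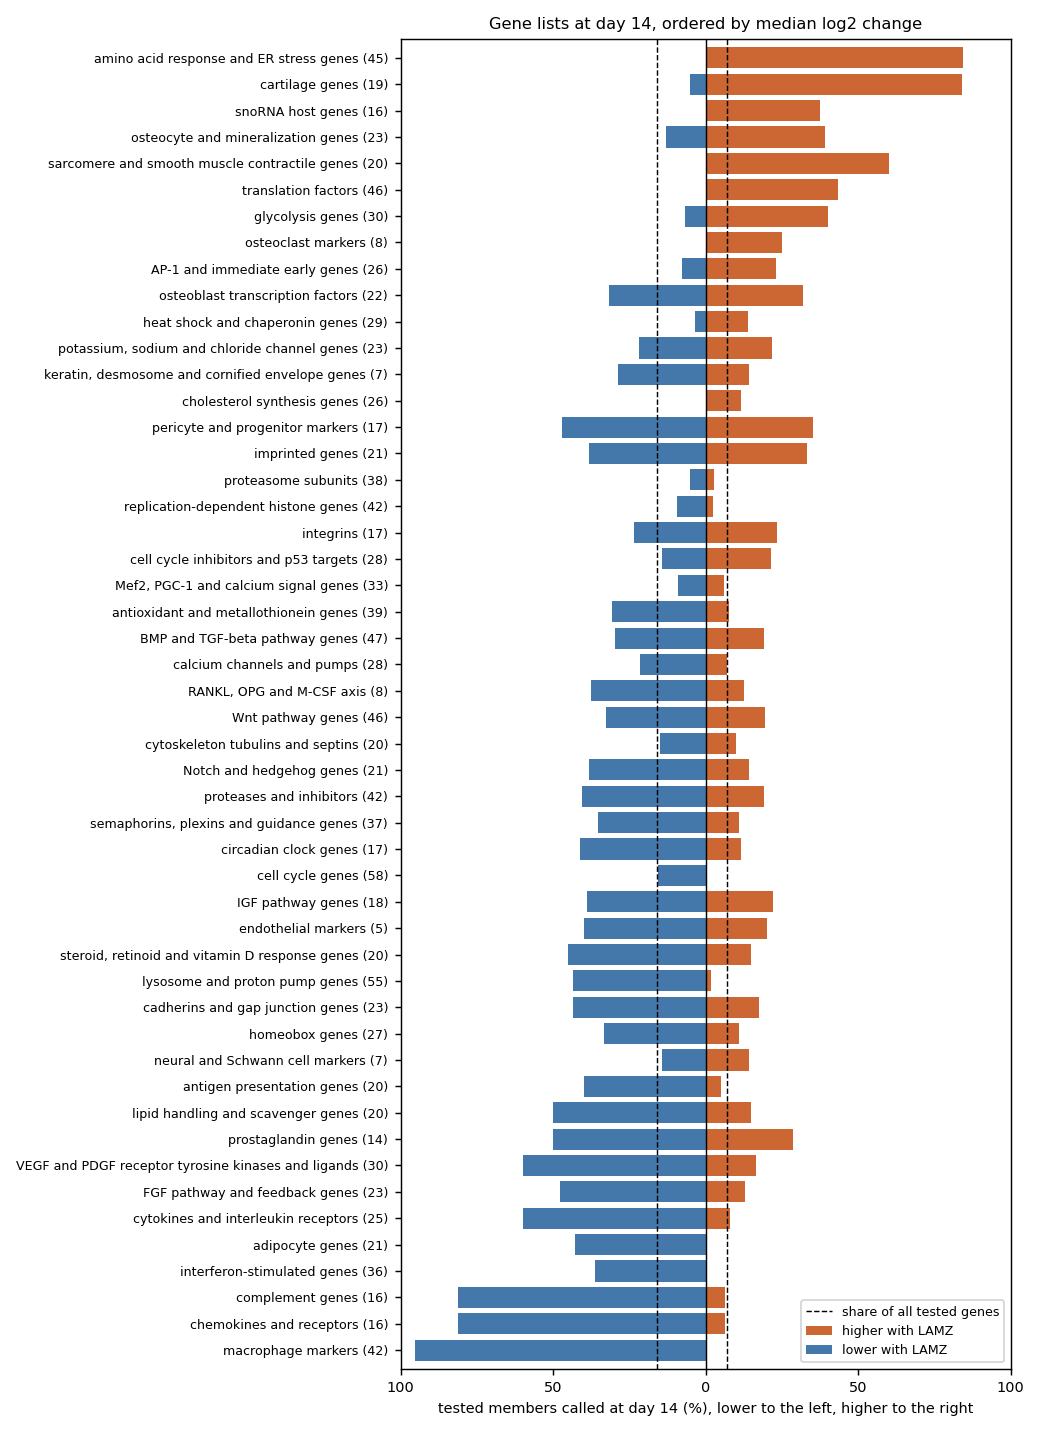
Share of the tested members of each gene list (number tested in brackets) called higher (right) or lower (left) with LAMZ at day 14, in percent, with dashed lines at the share of all tested genes (6.96% higher, 16.0% lower). The amino acid response and ER stress genes stand at the top with 38 of 45 members higher, and the macrophage markers at the bottom with 40 of 42 members lower.

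The amino acid response and ER stress genes had the highest median change of the lists with at least 5 tested members, with RPKM as deposited and after median centring, whereas cartilage genes were higher with the same sum of RPKM (0.85 against 0.82) and after quantile normalization (1.27 against 1.18). Of 45 tested members, 38 rose and none fell (6.96% and 16.0% of all tested genes), and their median change was 1.16. At day 7, 5 members had risen and 1 had fallen (4.35% and 8.49% of all tested genes), with a median of 0.26. The change at day 14 exceeded that at day 7 for 9 members, which were called for the difference between the days. Those calls depended on the libraries and the settings, as described with that test below. With any 1 of the 4 libraries left out, 33 to 36 members rose. Under the other scalings the median lay between 0.82 and 1.35.

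C/EBP-ATF composite elements, to which ATF4 binds with a C/EBP partner, hold the letters TGATGNAA, where N is any base. These letters were searched on both strands in windows of 300 bases, from 250 before to 50 after the transcription start, that RefSeq gives on GRCm38.p6. They occurred in 8 of the 37 tested list members with a window, in 2.57% of the 9039 tested genes with a window and in 3.97% of all 32851 windows. Each of the 8 members that held them rose, but 30 of the 37 members with a window rose in all. The share of genes with these letters was 5.02% among all that rose at day 14 and 3.16% among all that fell. The 5.02% includes the 8 members. Since the list was made of genes of this response, its share with these letters is a description and not a test. A match is a description of the letters and not of a bound site. In Trib3 the match reached past the start, as did a further match in Aars. For the other 7 members, stretches of 60 bases upstream of the start hold a match, in capitals as it reads on the strand of the gene. These letters lay at different distances from the start, from 23 bases in Asns to 200 bases in Vldlr.
Asns (chr6:7693210-7693269, minus strand): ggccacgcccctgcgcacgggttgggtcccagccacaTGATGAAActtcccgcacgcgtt
Chac1 (chr2:119351023-119351082, plus strand): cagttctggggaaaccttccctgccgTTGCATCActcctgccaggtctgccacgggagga
Herpud1 (chr8:94386291-94386350, plus strand): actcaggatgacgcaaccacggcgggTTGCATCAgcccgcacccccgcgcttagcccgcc
Vldlr (chr19:27216794-27216853, plus strand): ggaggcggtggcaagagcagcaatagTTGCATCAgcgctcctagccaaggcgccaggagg
Gars (chr6:55037941-55038000, plus strand): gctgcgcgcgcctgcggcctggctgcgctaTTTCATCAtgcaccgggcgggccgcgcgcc
Aars (chr8:111033704-111033763, plus strand): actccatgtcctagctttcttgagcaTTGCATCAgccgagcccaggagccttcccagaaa
Atf3 (chr1:191183410-191183469, minus strand): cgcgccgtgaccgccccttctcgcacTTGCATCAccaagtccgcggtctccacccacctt

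Among the transcription factors and signalling genes of the list, 9 of 12 rose. Atf4 itself had 68.9 and 69.3 RPKM in the control libraries and 169.6 and 157 RPKM in the LAMZ libraries, a log2 change of 1.23 ± 0.10 (adjusted p = 0.000202 from limma), against 0.19 at day 7. Trib3, a pseudokinase that restrains ATF4 signalling, had 15.1 and 11.6 RPKM in the control libraries and 81.7 and 78.5 RPKM in the LAMZ libraries, a log2 change of 2.51 ± 0.33 (adjusted p = 0.00163 from limma). Ddit3, which encodes the stress factor CHOP, had 14.8 and 15 RPKM in the control libraries and 60.1 and 47.1 RPKM in the LAMZ libraries, a log2 change of 1.77 ± 0.26 (adjusted p = 0.00249 from limma). Every LAMZ library lay above every control library for Atf4 and Ddit3, as for 20.1% of all tested genes. For Trib3, chosen among the largest rises, this was a condition of the choice. Chac1, a glutathione-degrading enzyme, and Ppp1r15a, which directs the phosphatase that ends the stress signal, rose by 1.51 and 1.48. Cebpb and Cebpg, partners of ATF4, were not called, with changes of 0.17 and 0.15.

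All 4 tested amino acid transporters and all 6 enzymes of serine, one-carbon and asparagine synthesis on the list rose. Slc7a3, a transporter of arginine and lysine, had 0.295 and 0.351 RPKM in the control libraries and 7.52 and 5.79 RPKM in the LAMZ libraries, a log2 change of 2.52 ± 0.20 (adjusted p = 0.00016 from limma). Its control values correspond to 6 and 6 reads. Slc7a5, the leucine transporter, rose from a mean RPKM of 8.45 to 29.7 and its partner Slc3a2 from 28.7 to 58.7. Asns, asparagine synthetase, had 13.8 and 13 RPKM in the control libraries and 56.8 and 47.6 RPKM in the LAMZ libraries, a log2 change of 1.88 ± 0.13 (adjusted p = 7.69e-05 from limma). Phgdh, the first enzyme of serine synthesis, had 15.7 and 21.4 RPKM in the control libraries and 69.5 and 63.4 RPKM in the LAMZ libraries, a log2 change of 1.80 ± 0.17 (adjusted p = 0.000295 from limma). At day 7 the changes of Asns and Phgdh were 0.57 and 0.21, and both genes were called for the difference between the days. Outside the list, the glycine transporter Slc6a9 rose, with 3.33 and 2.58 RPKM in the control libraries and 22.3 and 19.7 RPKM in the LAMZ libraries, a log2 change of 2.48 ± 0.19 (adjusted p = 0.000118 from limma). Its reads may overlap those of B4galt2 and Ccdc24. The other transporter with a large rise, Slc13a5, carries citrate. It had 14.9 and 15.2 RPKM in control and 79.1 and 78.2 with LAMZ and had risen by as much at day 7 (2.45 at day 7, 2.31 at day 14).

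The enzymes that load tRNA with amino acids come in a cytosolic and a mitochondrial set, and the list holds 8 of the cytosolic ones. To see the whole family, both sets were written out after these values had been seen. Of the 20 cytosolic synthetases 13 rose and none fell, with a median change of 0.79 and a range from 0.069 to 1.23. Of the 16 tested mitochondrial synthetases none was called, with a median of −0.029, 1 member at an unadjusted p under 0.05 and a range from −0.25 to 0.62. The median of the mitochondrial set became 0.16 after median centring and −0.28 with the same sum of RPKM, and that of the cytosolic set stayed between 0.45 and 0.98. Wars, the tryptophan enzyme, had 8.64 and 10.1 RPKM in the control libraries and 25.6 and 21 RPKM in the LAMZ libraries, a log2 change of 1.23 ± 0.14 (adjusted p = 0.00082 from limma). Nars, the asparagine enzyme, had 32.6 and 41.9 RPKM in the control libraries and 91.5 and 78.5 RPKM in the LAMZ libraries, a log2 change of 1.18 ± 0.15 (adjusted p = 0.00121 from limma). Among the mitochondrial enzymes, Iars2 had 4.19 and 4.83 RPKM in control and 4.36 and 4.03 with LAMZ, and its change of −0.083 did not pass the test.

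Of the 15 ER chaperones and folding genes, 11 rose, and in all 15 the LAMZ libraries were both higher than either control library, which held for 20.1% of all tested genes. Hspa5, the main chaperone of the ER lumen (BiP), had 90.9 and 103 RPKM in the control libraries and 346 and 263 RPKM in the LAMZ libraries, a log2 change of 1.63 ± 0.15 (adjusted p = 0.000307 from limma). Its change at day 7 was 0.21, and the difference between the days was 1.43 ± 0.21 (adjusted p = 0.0369 from limma, and 0.102 to 0.137 with any 1 of the 4 libraries left out). Herpud1, a part of the machinery that removes misfolded proteins, had 31.8 and 29.9 RPKM in the control libraries and 85.5 and 82.8 RPKM in the LAMZ libraries, a log2 change of 1.42 ± 0.13 (adjusted p = 0.000317 from limma). Hyou1, a large chaperone of the same compartment, rose from a mean RPKM of 15 to 41.5. Xbp1, Edem1, Canx and Pdia3 had changes of 0.43, 0.35, 0.20 and 0.40 and were not called. The lists of chaperones outside the ER moved less. Of 29 heat shock and chaperonin genes 4 rose and 1 fell (median 0.10, with 1 higher and 6 lower at the same sum of RPKM), the rises including the mitochondrial chaperone Hspa9 (log2 change 1.26, adjusted p = 0.00227 from limma) and the fall being that of Hspb1 (log2 change −0.97, adjusted p = 0.0152 from limma, and 0.0584 to 0.0917 without the first control, the second control or the second LAMZ library). The values of the whole amino acid response list in each library were plotted, with members ordered by their change.

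**Figure D2:**
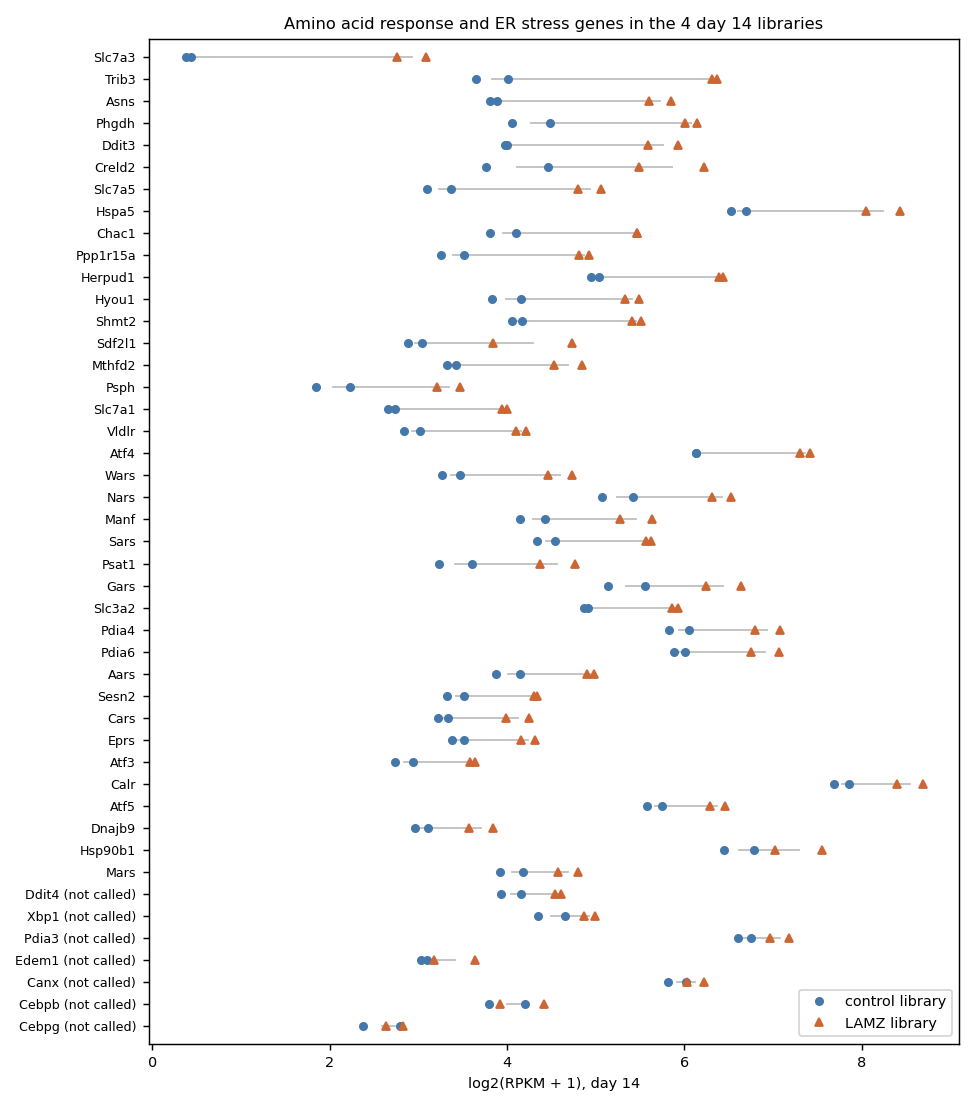
Expression, as log2(RPKM + 1), of the 45 tested amino acid response and ER stress genes in the 2 control (circles) and 2 LAMZ libraries (triangles) of day 14, with a line between the group means and genes ordered by their change. In the upper rows the libraries of the groups are far apart, as in Slc7a3 with a change of 2.52, and in the lowest 7 rows, which were not called, they approach each other or mix.

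Many genes of the translation machinery rose as well. Of 46 tested translation factors 20 rose and none fell (median 0.43), against 4 rises at day 7, and 9 rose and 2 fell after rescaling to the same sum (median 0.10). The largest rise was that of Eif4ebp1, an inhibitor of cap-dependent initiation, with 18.7 and 18.8 RPKM in the control libraries and 63.9 and 58.6 RPKM in the LAMZ libraries, a log2 change of 1.66 ± 0.11 (adjusted p = 6.34e-05 from limma). Pabpc4, a poly(A)-binding protein, had 18.6 and 22.4 RPKM in control and 47.2 and 52.8 with LAMZ (log2 change 1.25, adjusted p = 0.000541 from limma). Eef2, the elongation factor that moves the ribosome along the mRNA, had 558 and 551 RPKM in control and 999 and 988 with LAMZ (log2 change 0.84, adjusted p = 0.00182 from limma). Eef1a1 and other abundant factors have processed pseudogenes that could share their reads. Of 16 tested host genes of small nucleolar RNAs 6 rose and none fell (median 1.01), led by Snhg1 with 84.4 and 100.1 RPKM in the control libraries and 253 and 297 RPKM in the LAMZ libraries, a log2 change of 1.56 ± 0.15 (adjusted p = 0.000397 from limma). Proteasome subunits, another large complex, gave 1 rise and 2 falls among 38 (median −0.066, which became 0.12 after median centring), while 0 rose and 13 fell after rescaling to the same sum (median −0.40). The members that fell were Psme1 and Psme2, the interferon-inducible activator, with changes of −0.68 and −0.71. Reads of Psme1 may overlap those of Emc9.

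With mitochondrial, ribosomal and matrix genes and symbols of unnamed gene models not counted, the largest single rise at day 14 belonged to Cdsn (chromosome 17, 35552128 to 35557180 on GRCm38), which encodes corneodesmosin, an adhesion protein of the cornified skin layer. It had 1.46 and 1.57 RPKM in the control libraries and 72.5 and 45.2 RPKM in the LAMZ libraries, a log2 change of 4.53 ± 0.25 (adjusted p = 2.9e-05 from limma). These values rest on 21 and 19 reads in control and 1132 and 591 reads with LAMZ, and the LAMZ libraries differed from each other in level. Of 40 keratin, desmosome and cornified envelope genes 7 were tested (median 0.014), Cdsn alone of them rose, and Krt19 and Jup fell (−1.18 and −0.69). Avil, the actin-severing protein advillin, had 0.986 and 1.24 RPKM in the control libraries and 27.9 and 19.9 RPKM in the LAMZ libraries, a log2 change of 3.54 ± 0.19 (adjusted p = 2.44e-05 from limma). It overlaps Tsfm on the genome, so some reads may be shared. Car6, a secreted carbonic anhydrase, had 0 and 0.365 RPKM in the control libraries and 9.06 and 6.65 RPKM in the LAMZ libraries, a log2 change of 2.91 ± 0.25 (adjusted p = 0.000227 from limma). At day 7 the changes of Cdsn, Avil and Car6 were −0.71, −0.11 and −0.13, none of them called.

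Several of the other large rises were secreted signals and inhibitors. Adm2, a vasoactive peptide of the adrenomedullin family, had 2.86 and 3.18 RPKM in the control libraries and 28.4 and 28.9 RPKM in the LAMZ libraries, a log2 change of 2.88 ± 0.20 (adjusted p = 8.24e-05 from limma). Slpi, a secreted inhibitor of leukocyte proteases, had 10.7 and 11.2 RPKM in the control libraries and 59.7 and 56.4 RPKM in the LAMZ libraries, a log2 change of 2.30 ± 0.14 (adjusted p = 4.56e-05 from limma). Artn, a ligand of the GDNF family, had 1.01 and 0.092 RPKM in the control libraries and 7.91 and 4.68 RPKM in the LAMZ libraries, a log2 change of 2.27 ± 0.31 (adjusted p = 0.00196 from limma), the lower control value being a single read. These 3 genes were chosen among the largest rises, for which both LAMZ libraries had to lie above both control libraries. Tnn, a tenascin of developing bone, had 15.9 and 23.4 RPKM in the control libraries and 125 and 122 RPKM in the LAMZ libraries, a log2 change of 2.61 ± 0.17 (adjusted p = 5.76e-05 from limma). Prss50, a protease-like protein, was at 0 in both control libraries and at 4.12 and 4.78 RPKM with LAMZ. Anxa8, an annexin, and Aif1l, an actin-bundling protein, rose from mean RPKM values of 2.6 to 15.1 and 1.77 to 12.8. Fgf21, a hormone induced by ATF4 in other tissues, had 0 and 0.698 RPKM in the control libraries and 4.69 and 3.02 RPKM in the LAMZ libraries, a log2 change of 1.87 ± 0.31 (adjusted p = 0.00455 from limma).

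Many contractile genes rose, while regulators of skeletal muscle stayed under the filter. Of 40 sarcomere and smooth muscle contractile genes 20 were tested, of which 12 rose and none fell (median 0.49, and 0.17 after rescaling to the same sum). Acta1, skeletal muscle actin, had 0.97 and 1.58 RPKM in the control libraries and 22.8 and 18.5 RPKM in the LAMZ libraries, a log2 change of 3.26 ± 0.43 (adjusted p = 0.00164 from limma). Its reads could be shared with the similar actin genes Acta2 and Actg2, which also rose. Acta2, smooth muscle actin, had 675 and 835 RPKM in the control libraries and 1588 and 1495 RPKM in the LAMZ libraries, a log2 change of 1.04 ± 0.18 (adjusted p = 0.00538 from limma). Myh11, the smooth muscle myosin heavy chain, had 1.1 and 1.37 RPKM in the control libraries and 8.17 and 7.41 RPKM in the LAMZ libraries, a log2 change of 1.98 ± 0.14 (adjusted p = 8.23e-05 from limma). Des, the muscle intermediate filament desmin, had 1.09 and 2.06 RPKM in control and 6.39 and 5.84 with LAMZ (log2 change 1.49, adjusted p = 0.00214 from limma). All 12 myogenic regulators stayed under the filter, with a summed RPKM of 1.81 to 1.94 RPKM in the control libraries and 1.62 to 1.64 RPKM in the LAMZ libraries. Klf5 and Musk, the 2 with the highest mean RPKM at day 14, stood at 0.325 and 0.771 RPKM in control and 0.598 and 0.357 with LAMZ and at 0.592 and 0.41 RPKM in control and 0.0454 and 0.163 with LAMZ. Other markers of mural cells moved in opposite directions, as the proteoglycan Cspg4 rose (log2 change 1.77, adjusted p = 0.000763 from limma) and the receptor Pdgfrb fell (log2 change −0.74, adjusted p = 0.00315 from limma).

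Of the genes that the study itself followed, Mef2c, a transcription factor of muscle and bone, rose, with 6.8 and 8.33 RPKM in the control libraries and 13.4 and 13.9 RPKM in the LAMZ libraries, a log2 change of 0.78 ± 0.15 (adjusted p = 0.00908 from limma, and 0.0575 to 0.0578 without the first control or the second LAMZ library). Ppargc1a, which encodes the coactivator PGC-1α, was too low to be tested, with 0.0848 and 0.0336 RPKM in the control libraries and 0.182 and 0.311 RPKM in the LAMZ libraries, or 3 and 1 reads against 7 and 10. Among 33 tested Mef2, PGC-1 and calcium signal genes 2 rose and 3 fell (median −0.11, with 7 higher and 3 lower after median centring), shares under those of all tested genes (6.96% and 16.0%). Calm3, a calmodulin gene, was among those that fell (log2 change −0.75, adjusted p = 0.00384 from limma), and Calm2 rose (log2 change 0.55, adjusted p = 0.0379 from limma, and 0.0844 to 0.206 without the first control, the second control or the first LAMZ library), although reads may be shared between calmodulin genes. The list of calcium channels, pumps and S100 proteins held 2 rises and 6 falls among 28 tested members (median −0.15), near the shares (6.96% and 16.0%) and the median (−0.15) of all tested genes. S100a4, a calcium-binding protein of motile cells, had 117 and 122 RPKM in the control libraries and 13.5 and 7.01 RPKM in the LAMZ libraries, a log2 change of −3.48 ± 0.24 (adjusted p = 7.27e-05 from limma). Cacna1g, a T-type calcium channel, had 10.9 and 11.9 RPKM in the control libraries and 2.79 and 3.07 RPKM in the LAMZ libraries, a log2 change of −1.66 ± 0.14 (adjusted p = 0.000174 from limma). Piezo1, a mechanically gated cation channel, rose (log2 change 0.80, adjusted p = 0.00196 from limma). Fos was not called (4.91 and 5.55 RPKM in the control libraries and 4.3 and 3.92 RPKM in the LAMZ libraries, log2 change −0.28). Gapdh, which the study used as its reference for PCR, had 52.9 and 90.8 RPKM in the control libraries and 109.8 and 118 RPKM in the LAMZ libraries and a change of 0.71 that was not called (adjusted p = 0.121 from limma), with the control libraries farther apart than the LAMZ libraries.

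Of 23 tested osteocyte and mineralization genes 9 rose and 3 fell (6.96% and 16.0% of all tested genes), with a median of 0.81. At day 7, 10 of them had risen and 2 had fallen (median 0.78). Alpl, the phosphatase that frees phosphate for mineral, had 73.3 and 81.3 RPKM in the control libraries and 306 and 398 RPKM in the LAMZ libraries, a log2 change of 2.16 ± 0.24 (adjusted p = 0.00071 from limma). The matrix phosphoproteins Spp1 and Dmp1 rose from mean RPKM values of 313 to 2474 and 19.5 to 155. Mepe, an osteocyte phosphoprotein, had 0.443 and 0.526 RPKM in the control libraries and 4.79 and 9.13 RPKM in the LAMZ libraries, a log2 change of 2.37 ± 0.28 (adjusted p = 0.000885 from limma). Sost, the Wnt inhibitor made by osteocytes, had 6.85 and 6.75 RPKM in the control libraries and 12.7 and 17.7 RPKM in the LAMZ libraries, and its change of 1.04 was not called (adjusted p = 0.0629 from limma). Bglap and Bglap2, which encode the bone matrix protein osteocalcin, were not called either, with changes of −0.14 and 0.38. The 3 members that fell were Ptn, Capg and Pdpn, with changes of −1.32, −1.30 and −1.06. Osteoblast transcription factors split into 7 that rose and 7 that fell among 22 (median 0.11, with 3 higher and 8 lower at the same sum of RPKM and 7 higher and 5 lower after median centring). Sp7 (osterix), which commits cells to the osteoblast lineage, had 23.8 and 25.1 RPKM in the control libraries and 45.3 and 55.6 RPKM in the LAMZ libraries, a log2 change of 1.01 ± 0.19 (adjusted p = 0.00722 from limma, and 0.0558 without the second LAMZ library). Dlx3, Dlx5 and Tcf7 rose by 0.84, 0.64 and 0.76. Runx2, the factor upstream of Sp7, was not called (0.20), and antisense genes overlap it. Among those that fell was Twist1, which restrains Runx2, with 20.7 and 27.3 RPKM in the control libraries and 10.6 and 11.1 RPKM in the LAMZ libraries, a log2 change of −1.06 ± 0.16 (adjusted p = 0.00274 from limma). Msx1 and Zfp521 fell, with changes of −1.02 and −0.81.

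Cartilage genes, most of which encode matrix, rose in 16 of 19 tested members (median 1.07), whereas Sox9, the factor that directs the cartilage programme, fell, with 7.88 and 7.17 RPKM in the control libraries and 3.98 and 4.8 RPKM in the LAMZ libraries, a log2 change of −0.66 ± 0.16 (adjusted p = 0.0225 from limma, and 0.0541 to 0.125 with any 1 of the 4 libraries left out). Pth1r, the receptor of parathyroid hormone, had 61.1 and 76.3 RPKM in the control libraries and 217 and 245 RPKM in the LAMZ libraries, a log2 change of 1.74 ± 0.18 (adjusted p = 0.000501 from limma). Ihh, the hedgehog ligand of growth cartilage, and its receptor and target Ptch1 rose from mean RPKM values of 1.27 to 3.7 and 5.11 to 9.72. At day 7, 13 of the tested cartilage genes had already risen and none had fallen (median 1.20). Among homeobox genes 3 of 27 rose and 9 fell (median −0.49). Irx1 had 3.06 and 2.7 RPKM in the control libraries and 0.262 and 0.235 RPKM in the LAMZ libraries, a log2 change of −1.63 ± 0.19 (adjusted p = 0.000951 from limma).

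Macrophage genes fell furthest. Of 42 tested macrophage markers 40 fell and none rose (median −3.35), and the list summed to 1499 to 1503 RPKM in the control libraries and 16.1 to 17.2 RPKM in the LAMZ libraries. With any 1 of the 4 libraries left out, 37 to 39 of them fell. Under other scalings the median lay between −3.64 and −3.16. At day 7, 35 of these markers had already fallen and none had risen (median −2.18). In bulk RNA, fewer macrophages and less RNA per macrophage cannot be told apart. C1qb, a chain of the first complement component, had 91.2 and 97.4 RPKM in control and 0 reads in both LAMZ libraries, which is at least 182-fold lower against a floor of 3 reads per library. Tyrobp, an adaptor of myeloid receptors, had 49.1 and 37.8 RPKM in control and also 0 with LAMZ, at least 51.4-fold lower. Csf1r, the receptor that macrophages need to survive, had 16.8 and 17.3 RPKM in the control libraries and 0.421 and 0.377 RPKM in the LAMZ libraries, a log2 change of −3.69 ± 0.13 (adjusted p = 4.56e-06 from limma). Its ligands Csf1 and Il34, made by stromal cells, fell as well. Il34 had 18.6 and 21.9 RPKM in the control libraries and 3.59 and 4.18 RPKM in the LAMZ libraries, a log2 change of −2.12 ± 0.17 (adjusted p = 0.000162 from limma). Csf1 had 76.6 and 91.1 RPKM in the control libraries and 55.3 and 55.9 RPKM in the LAMZ libraries, a log2 change of −0.58 ± 0.13 (adjusted p = 0.0155 from limma, and 0.0762 to 0.0877 without the second control, the first LAMZ or the second LAMZ library). Floors cover counting error only. The reads of the lysozyme genes Lyz2 and Lyz1 may be shared. Lyz2 had 695 and 789 RPKM in control and 5.99 and 5.29 with LAMZ, and Lyz1 had 36 and 51.5 RPKM in control and 0 in both LAMZ libraries.

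Osteoclasts descend from the same lineage, but their markers did not fall together. Of 16 osteoclast markers 8 were tested, of which 2 rose and none fell (median 0.11, with 2 higher and 3 lower at the same sum of RPKM). Among those that mark mature osteoclasts, Calcr and Dcstamp were under the filter, whereas Acp5 was tested and not called (0.09). Mmp9, a gelatinase that osteoclasts and other cells make, had 1.37 and 1.56 RPKM in the control libraries and 3.92 and 8.62 RPKM in the LAMZ libraries, a log2 change of 1.48 ± 0.28 (adjusted p = 0.0075 from limma). Itgb3 had 6.85 and 7.68 RPKM in the control libraries and 15.4 and 17.1 RPKM in the LAMZ libraries, a log2 change of 1.06 ± 0.11 (adjusted p = 0.000629 from limma). Tnfsf11, which encodes RANKL, the signal that induces osteoclasts, rose, with 0.833 and 1.29 RPKM in the control libraries and 2.15 and 3.57 RPKM in the LAMZ libraries, a log2 change of 0.89 ± 0.24 (adjusted p = 0.0329 from limma, and 0.0661 to 0.224 without the first control, the second control or the second LAMZ library). Tnfrsf11b, its decoy receptor osteoprotegerin, had 17 and 16.4 RPKM in the control libraries and 20.9 and 14.8 RPKM in the LAMZ libraries and was not called (0.071). Over the 8 tested genes of the axis of RANKL, osteoprotegerin and the macrophage growth factor, 1 rose and 3 fell (median −0.20).

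In other immune lists most called members fell as well. The summed macrophage markers moved with them, from 1499 to 1503 RPKM in control to 16.1 to 17.2 RPKM with LAMZ. Their part in these changes, and in those of lysosomal, lipid handling and adipocyte genes, was not tested. Of 16 tested chemokines and receptors 13 fell and 1 rose (median −2.06). Ccl2, which attracts monocytes, had 12.4 and 10.7 RPKM in the control libraries and 0 and 0.18 RPKM in the LAMZ libraries, a log2 change of −3.53 ± 0.23 (adjusted p = 5.79e-05 from limma). Cxcl12, a stromal chemokine that retains haematopoietic cells, had 60.3 and 52 RPKM in the control libraries and 6.9 and 6.64 RPKM in the LAMZ libraries, a log2 change of −2.88 ± 0.14 (adjusted p = 1.37e-05 from limma). The member that rose was Ackr3, a scavenging receptor of Cxcl12, with 15 and 19.2 RPKM in the control libraries and 42.4 and 47.8 RPKM in the LAMZ libraries, a log2 change of 1.35 ± 0.31 (adjusted p = 0.0174 from limma, and 0.0542 to 0.0963 with any 1 of the 4 libraries left out). Of 16 complement genes 13 fell and 1, Cd59a, rose (median −1.68). C3, the central component, had 18.1 and 15.9 RPKM in the control libraries and 0.567 and 0.478 RPKM in the LAMZ libraries, a log2 change of −3.56 ± 0.14 (adjusted p = 6.26e-06 from limma). Serping1, the inhibitor of the first component, fell from a mean RPKM of 67.5 to 17.5. Cytokines and interleukin receptors fell in 15 of 25 tested members and rose in 2 (median −0.68). Il1r1, the receptor of interleukin 1, had 5.53 and 6.01 RPKM in the control libraries and 1.64 and 1.48 RPKM in the LAMZ libraries, a log2 change of −1.40 ± 0.11 (adjusted p = 0.000164 from limma). Il6st, the shared subunit of interleukin 6 receptors, had 20.7 and 22.5 RPKM in control and 10.9 and 10.6 with LAMZ (log2 change −0.94, adjusted p = 0.000911 from limma). Tnf was at 0 in both LAMZ libraries and at 2.39 and 1.62 RPKM in control. The members that rose were Lif and Tgfbi, which encodes a matrix protein rather than a cytokine, with changes of 0.75 and 0.69.

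Interferon-stimulated genes fell in 13 of 36 tested members and rose in none (median −0.94), and at day 7 in 22. The list summed to 202 to 299 RPKM in the control libraries and 121 to 123 RPKM in the LAMZ libraries, so the control libraries differed from each other. Ifit3, a restriction factor whose reads may be shared with Ifit3b, had 18.9 and 12.4 RPKM in the control libraries and 0.983 and 1.76 RPKM in the LAMZ libraries, a log2 change of −2.80 ± 0.54 (adjusted p = 0.00824 from limma, and 0.0557 to 0.0589 without the first control or the first LAMZ library). Isg15 had 28.3 and 10.5 RPKM in the control libraries and 9.53 and 9.21 RPKM in the LAMZ libraries, and its change of −0.83 was not called. Antigen presentation genes fell in 8 of 20 tested members and rose in 1 (median −0.57). B2m, the light chain of class I molecules, had 262 and 212 RPKM in the control libraries and 126 and 129 RPKM in the LAMZ libraries, a log2 change of −0.88 ± 0.13 (adjusted p = 0.00246 from limma). H2-D1, a class I heavy chain whose reads may be shared with other H2 genes, fell from a mean RPKM of 87.6 to 30.1. The member that rose, H2-Ab1 of class II, had 3.3 and 1.22 RPKM in the control libraries and 8.8 and 7.76 RPKM in the LAMZ libraries, a log2 change of 1.59 ± 0.31 (adjusted p = 0.00871 from limma, and 0.0564 without the first LAMZ library). Cd74, its chaperone, had 8.06 and 1.57 RPKM in the control libraries and 1.46 and 1.16 RPKM in the LAMZ libraries and was not called.

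Lysosomal genes fell in 24 of 55 tested members and rose in 1 (median −0.38), and in 9 at day 7. Ctss, a cathepsin that macrophages express and that stands on both lists, was at 0 in both LAMZ libraries. Ctsb, a cathepsin of most cells, had 204 and 182 RPKM in the control libraries and 55.1 and 51.3 RPKM in the LAMZ libraries, a log2 change of −1.84 ± 0.13 (adjusted p = 7.29e-05 from limma). Its reads may overlap those of Fdft1. Lipa, the acid lipase, had 39.7 and 33.9 RPKM in the control libraries and 9.99 and 8.76 RPKM in the LAMZ libraries, a log2 change of −1.86 ± 0.13 (adjusted p = 7.27e-05 from limma). Gla, Psap and the proton pump subunit Atp6v1a fell, with changes of −1.04, −0.79 and −0.79. Lipid handling genes fell in 10 of 20 tested members and rose in 3 (median −0.60), with Apoe, a lipid carrier that macrophages secrete, at 121 and 114 RPKM in the control libraries and 9.42 and 15.9 RPKM in the LAMZ libraries, a log2 change of −3.16 ± 0.20 (adjusted p = 5.64e-05 from limma). Vldlr, a lipoprotein receptor on the amino acid response list as well, rose (log2 change 1.23, adjusted p = 0.00176 from limma).

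Adipocyte genes fell in 9 of 21 tested members and rose in none (median −0.72). Fabp4 and Cd36, members of this list, stand on the lipid handling list as well. The part of macrophage RNA in these falls was not tested. Lpl, which frees fatty acids from lipoproteins, had 31.9 and 35.3 RPKM in the control libraries and 3.9 and 4.66 RPKM in the LAMZ libraries, a log2 change of −2.71 ± 0.12 (adjusted p = 9.97e-06 from limma). Cebpa, a factor of adipocyte differentiation, had 16.2 and 14.7 RPKM in the control libraries and 3.19 and 3.34 RPKM in the LAMZ libraries, a log2 change of −1.94 ± 0.19 (adjusted p = 0.000384 from limma). Adipoq, which encodes adiponectin and marks mature adipocytes, had 2.43 and 11.7 RPKM in the control libraries and 0.124 and 0 RPKM in the LAMZ libraries, and Fabp4, a fatty acid binding protein, had 6.44 and 41.2 RPKM in the control libraries and 0.383 and 0.457 RPKM in the LAMZ libraries. For both genes the second control library stood far above the first, and the falls are given as a log2 change of −2.64 ± 0.61 (adjusted p = 0.018 from limma, and 0.0721 to 0.0916 without the second control, the first LAMZ or the second LAMZ library) and a log2 change of −3.64 ± 0.74 (adjusted p = 0.0104 from limma, and 0.0565 to 0.0566 without the first LAMZ or the second LAMZ library). Pparg, the master regulator of fat cells, had 4.23 and 4.34 RPKM in the control libraries and 3.19 and 3.75 RPKM in the LAMZ libraries and was not called (−0.24). Cholesterol synthesis genes gave 3 rises and no fall among 26 tested members, with a median of −0.044 that became 0.15 after median centring, while 1 rose and 11 fell after rescaling to the same sum (median −0.37). Of 39 tested antioxidant and metallothionein genes 3 rose and 12 fell (median −0.13). Selenop, a selenium carrier, had 82.5 and 84.5 RPKM in the control libraries and 7.11 and 7.92 RPKM in the LAMZ libraries, a log2 change of −3.31 ± 0.19 (adjusted p = 3.47e-05 from limma). Its reads may overlap those of Ccdc152. Mt1 and Mt2, which bind zinc and copper, rose by 1.21 and 1.13.

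Outside the immune lists, the largest falls included Sfrp1, an extracellular inhibitor of Wnt signalling, with 111 and 107 RPKM in the control libraries and 1.65 and 2.3 RPKM in the LAMZ libraries, a log2 change of −5.22 ± 0.19 (adjusted p = 4.56e-06 from limma). It had fallen less at day 7 (−3.00), and the difference between the days was −2.22 ± 0.27 (adjusted p = 0.0268 from limma, and 0.1 to 0.127 with any 1 of the 4 libraries left out). Clec3b (tetranectin), a plasminogen-binding protein that accompanies mineralization, had 23.7 and 22.5 RPKM in control and 0 with LAMZ, at least 40.6-fold lower. The following genes were chosen after their values were seen, as further large falls among genes that are not macrophage markers. Txnip, a glucose-induced inhibitor of glucose uptake, had 75.9 and 94.3 RPKM in the control libraries and 4.7 and 3.99 RPKM in the LAMZ libraries, a log2 change of −4.01 ± 0.23 (adjusted p = 3.23e-05 from limma). Egfl6, a secreted factor of osteoblasts, had 74 and 76.5 RPKM in the control libraries and 4.63 and 4.17 RPKM in the LAMZ libraries, a log2 change of −3.82 ± 0.14 (adjusted p = 4.74e-06 from limma). Apod, a lipocalin, had 49.9 and 54.2 RPKM in the control libraries and 3.59 and 2.38 RPKM in the LAMZ libraries, a log2 change of −3.75 ± 0.21 (adjusted p = 2.9e-05 from limma). Each of the 3 had fallen at day 7 too, with changes of −2.25, −2.45 and −2.75. The values of 12 genes were plotted by group for both days.

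**Figure D3:**
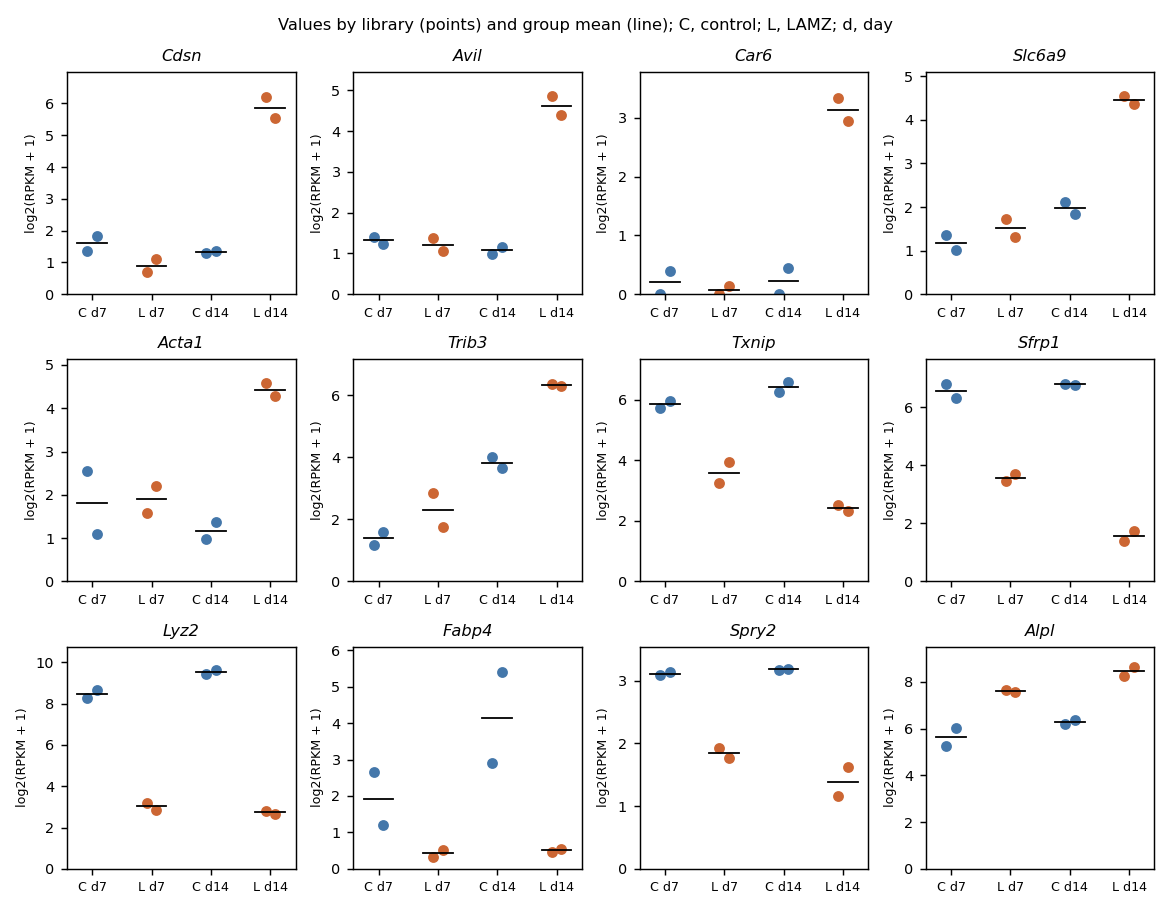
Expression, as log2(RPKM + 1), of 12 genes in control (C) and LAMZ (L) libraries at day 7 (d7) and day 14 (d14), with a point for each of the 2 libraries of a group and a line at their mean. Cdsn, Avil, Car6, Slc6a9 and Acta1 are high in the day 14 LAMZ libraries only, Trib3 is highest there, and Txnip, Sfrp1, Lyz2, Fabp4 and Spry2 are lower with LAMZ than in control on both days.

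Wnt pathway genes rose in 9 and fell in 15 of 46 tested members (median −0.21, with 15 higher and 11 lower after median centring). Among the falls were secreted enhancers, receptors and inhibitors. Sfrp2, a relative of Sfrp1, had 172 and 177 RPKM in the control libraries and 37 and 47.1 RPKM in the LAMZ libraries, a log2 change of −2.04 ± 0.17 (adjusted p = 0.000176 from limma), against −0.31 at day 7, and was called for the difference between the days. Rspo2, an R-spondin that amplifies Wnt signals, had 15 and 15.3 RPKM in the control libraries and 3.66 and 1.23 RPKM in the LAMZ libraries, a log2 change of −2.32 ± 0.29 (adjusted p = 0.00133 from limma). Its receptor Lgr5 and the Wnt receptor Fzd4 fell from mean RPKM values of 9.41 to 1.57 and 7.37 to 0.707. Axin2, a transcriptional target of the pathway, fell (log2 change −0.58, adjusted p = 0.0438 from limma, and 0.104 to 0.178 with any 1 of the 4 libraries left out) from low values. Wnt10b, a ligand that favours bone over fat, rose, with 4.47 and 4.26 RPKM in the control libraries and 12.6 and 14.7 RPKM in the LAMZ libraries, a log2 change of 1.45 ± 0.19 (adjusted p = 0.00156 from limma). Other inhibitors rose, among them Sfrp4 and Frzb, by 1.36 and 1.32. The direction thus differed between members of 1 family, as Sfrp1 and Sfrp2 fell and Sfrp4 and Frzb rose under each of the 3 other scalings.

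BMP and TGF-β pathway genes rose in 9 and fell in 14 of 47 (median −0.15, with 14 higher and 11 lower after median centring). Fstl1, a secreted follistatin-like protein, had 317 and 335 RPKM in the control libraries and 107 and 87.4 RPKM in the LAMZ libraries, a log2 change of −1.74 ± 0.15 (adjusted p = 0.000174 from limma). Id1, Id3, Id2 and Id4, the direct targets of BMP signals, all fell, with changes of −1.27, −0.87, −0.60 and −0.89. Nog, a secreted BMP antagonist, had 4.5 and 6.0 RPKM in the control libraries and 14.4 and 18.9 RPKM in the LAMZ libraries, a log2 change of 1.49 ± 0.21 (adjusted p = 0.00199 from limma). Tgfb1 had 6.5 and 5.61 RPKM in the control libraries and 15.4 and 17.4 RPKM in the LAMZ libraries, a log2 change of 1.30 ± 0.13 (adjusted p = 0.000501 from limma), and the receptor Tgfbr2 fell (log2 change −0.85, adjusted p = 0.013 from limma, and 0.0613 to 0.0885 without the first control, the second control or the second LAMZ library).

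In the FGF pathway 3 of 23 tested members rose and 11 fell (median −0.68). Negative feedback genes of the receptor-ERK cascade made up 7 of the 11 falls. Spry2 had 8.04 and 8.06 RPKM in the control libraries and 1.23 and 2.06 RPKM in the LAMZ libraries, a log2 change of −1.79 ± 0.16 (adjusted p = 0.000281 from limma). Dusp6, an ERK phosphatase, had 6.48 and 9.53 RPKM in the control libraries and 2.41 and 2.42 RPKM in the LAMZ libraries, a log2 change of −1.38 ± 0.29 (adjusted p = 0.0121 from limma, and 0.0614 to 0.0866 without the second control, the first LAMZ or the second LAMZ library). Spry1, Spry4 and Dusp4 fell, with changes of −0.99, −0.78 and −1.33, and so did the immediate early gene Egr1 (log2 change −0.91, adjusted p = 0.0184 from limma, and 0.0527 to 0.112 without the first control, the second control or the first LAMZ library). The ligands Fgf18 and Fgf2 fell (−1.51 and −1.02) and the receptors Fgfr2 and Fgfr3 rose (0.90 and 0.92). Of 30 tested genes of other receptor tyrosine kinases and their ligands 18 fell and 5 rose (median −0.64). Vegfd had 34.9 and 33.3 RPKM in the control libraries and 2.14 and 2.21 RPKM in the LAMZ libraries, a log2 change of −3.47 ± 0.14 (adjusted p = 6.35e-06 from limma). Pdgfra, a receptor of mesenchymal progenitors, fell from a mean RPKM of 13.7 to 4.91, while its ligands Pdgfa and Pdgfb rose from 12.5 to 39.6 and 0.991 to 4.5. Axl, a receptor for apoptotic cell clearance, had 26.8 and 30.3 RPKM in the control libraries and 6.47 and 6.92 RPKM in the LAMZ libraries, a log2 change of −1.94 ± 0.13 (adjusted p = 7.1e-05 from limma).

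IGF binding proteins moved in opposite directions. Igfbp3 had 26.6 and 24.5 RPKM in the control libraries and 3.83 and 3.47 RPKM in the LAMZ libraries, a log2 change of −2.51 ± 0.21 (adjusted p = 0.000177 from limma). Igfbp5, the form most abundant in bone, had 132 and 145 RPKM in the control libraries and 395 and 374 RPKM in the LAMZ libraries, a log2 change of 1.47 ± 0.14 (adjusted p = 0.000384 from limma). Over the IGF list 4 of 18 members rose and 7 fell (median −0.33). Notch and hedgehog genes rose in 3 and fell in 8 of 21 (median −0.24), with the Notch ligand Jag1 and its modifier Lfng falling (changes of −1.30 and −1.62). Of 14 prostaglandin genes 4 rose and 7 fell (median −0.63). Ptgs2, the inducible cyclooxygenase, had 0.773 and 1.74 RPKM in the control libraries and 7.79 and 7.96 RPKM in the LAMZ libraries, a log2 change of 2.01 ± 0.20 (adjusted p = 0.000401 from limma). Ptgs1, the constitutive form, had 5.32 and 4.73 RPKM in the control libraries and 1.46 and 1.42 RPKM in the LAMZ libraries, a log2 change of −1.30 ± 0.22 (adjusted p = 0.00467 from limma). The receptors Ptger1, Ptger3, Ptger4 and Ptgir all fell, with changes from −1.43 to −0.73. Steroid, retinoid and vitamin D response genes rose in 3 and fell in 9 of 20 (median −0.34). Cyp26b1, which degrades retinoic acid, had 19 and 18.9 RPKM in the control libraries and 5.8 and 4.98 RPKM in the LAMZ libraries, a log2 change of −1.65 ± 0.13 (adjusted p = 0.00016 from limma). The retinol carrier Rbp4 had 2.15 and 4.95 RPKM in the control libraries and 16.3 and 17.8 RPKM in the LAMZ libraries, a log2 change of 2.06 ± 0.29 (adjusted p = 0.00212 from limma). Vdr, the vitamin D receptor, rose (log2 change 1.15, adjusted p = 0.00577 from limma) and Nr3c1, the glucocorticoid receptor, fell (log2 change −0.73, adjusted p = 0.00315 from limma).

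Glycolysis genes rose in 12 of 30 tested members and fell in 2 at day 14, and in 22 and 1 at day 7, so more members were called at the earlier day. The balance at day 14 depended on the scaling, as 3 rose and 4 fell after rescaling to the same sum (median 0.078). Slc2a1, the glucose transporter, had 20.8 and 19.1 RPKM in the control libraries and 37.2 and 41.8 RPKM in the LAMZ libraries, a log2 change of 0.95 ± 0.15 (adjusted p = 0.00383 from limma). Egln3, an oxygen-sensing hydroxylase, had 22.3 and 29.4 RPKM in control and 54.4 and 57.1 with LAMZ and a change of 1.09 at day 14 and 2.55 at day 7. Ldhb fell (log2 change −0.84, adjusted p = 0.00817 from limma, and 0.0557 to 0.056 without the second control or the second LAMZ library). Median changes were 0.40 at day 14 and 0.75 at day 7. Cell cycle genes fell in 9 of 58 tested members (16.0% of all tested genes fell) and rose in none, with a median of −0.33. Mki67, a marker of dividing cells, had 3.66 and 5.21 RPKM in the control libraries and 2.35 and 2.12 RPKM in the LAMZ libraries, a log2 change of −0.74 ± 0.16 (adjusted p = 0.0121 from limma, and 0.0614 to 0.0771 without the second control or the second LAMZ library). At day 7 a single member was called. Of 28 cell cycle inhibitors and p53 targets 6 rose and 4 fell (median −0.10, with 3 higher and 12 lower at the same sum of RPKM), and of 42 replication-dependent histone genes, whose reads may be shared, 1 rose and 4 fell (median −0.087, with 6 higher and 4 lower after median centring). Circadian clock genes fell in 7 and rose in 2 of 17 (median −0.32), with the output genes Tef and Dbp falling (changes of −0.97 and −0.83). Of 26 AP-1 and immediate early genes 6 rose and 2 fell (median 0.11, with 2 higher and 7 lower at the same sum of RPKM), with Myc, a driver of ribosome and metabolic genes, at 11.7 and 12.5 RPKM in the control libraries and 27.3 and 28.2 RPKM in the LAMZ libraries, a log2 change of 1.14 ± 0.12 (adjusted p = 0.000613 from limma). Ctgf (Ccn2), a matrix-associated growth factor, had 79.1 and 90.7 RPKM in the control libraries and 238 and 221 RPKM in the LAMZ libraries, a log2 change of 1.43 ± 0.16 (adjusted p = 0.000689 from limma).

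Surface and adhesion genes changed in both directions. Pericyte and progenitor markers fell in 8 and rose in 6 of 17 (median −0.059). Ly6a (Sca-1), a surface marker of mesenchymal progenitors, had 80.8 and 81.3 RPKM in the control libraries and 11.8 and 6.97 RPKM in the LAMZ libraries, a log2 change of −3.02 ± 0.21 (adjusted p = 7.27e-05 from limma). Cd34 had 13.1 and 13.9 RPKM in the control libraries and 0.672 and 0.722 RPKM in the LAMZ libraries, a log2 change of −3.09 ± 0.12 (adjusted p = 4.74e-06 from limma). Thy1 fell from a mean RPKM of 211 to 66.3, and Mcam (CD146) rose from 2.11 to 8.63. Of 19 endothelial markers 5 were tested and Pecam1 and Cdh5 were under the filter. Tested members gave 1 rise and 2 falls (median −0.34). Cadherin and gap junction genes fell in 10 and rose in 4 of 23 (median −0.39), with Vcam1, an adhesion molecule for leukocytes, at 12.7 and 14.6 RPKM in the control libraries and 3.36 and 2.53 RPKM in the LAMZ libraries, a log2 change of −1.90 ± 0.15 (adjusted p = 0.00016 from limma). Of 17 integrins 4 rose and 4 fell (median −0.089, with 3 higher and 8 lower at the same sum of RPKM and 6 higher and 4 lower after median centring), among the rises Itga7, a laminin receptor of muscle that overlaps Mettl7b (log2 change 1.85, adjusted p = 0.000365 from limma). Of 42 proteases and inhibitors 8 rose and 17 fell (median −0.26). Plau, the urokinase activator of plasminogen, had 37.1 and 29.3 RPKM in the control libraries and 6.73 and 5.42 RPKM in the LAMZ libraries, a log2 change of −2.27 ± 0.15 (adjusted p = 6.11e-05 from limma), and Mmp13, the collagenase of osteoblasts, rose from a mean RPKM of 137 to 326.

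Semaphorins and other guidance genes fell in 13 and rose in 4 of 37 (median −0.28), with Sema3a, which osteoblasts secrete, at 7.12 and 8.63 RPKM in the control libraries and 1.93 and 1.58 RPKM in the LAMZ libraries, a log2 change of −1.69 ± 0.14 (adjusted p = 0.000157 from limma). Imprinted genes split into 7 rises and 8 falls among 21 (median −0.06, with 9 higher and 6 lower after median centring). The noncoding RNA Meg3 had 27.4 and 28.3 RPKM in the control libraries and 7.57 and 6.66 RPKM in the LAMZ libraries, a log2 change of −1.83 ± 0.11 (adjusted p = 4.91e-05 from limma), and its neighbours Rian, Mirg, Rtl1 and Dlk1 also fell, with changes of −1.08, −0.97, −1.26 and −0.96. Mest rose from a mean RPKM of 49.7 to 108 and Igf2 from 164 to 242. Channels for potassium, sodium and chloride gave 5 rises and 5 falls among 23 (median 0.085, with 3 higher and 8 lower at the same sum of RPKM and 7 higher and 4 lower after median centring), with Kcnk1, a potassium leak channel, at 6.58 and 5.34 RPKM in the control libraries and 16.3 and 16.7 RPKM in the LAMZ libraries, a log2 change of 1.34 ± 0.17 (adjusted p = 0.00119 from limma). Of 20 tested tubulins and other cytoskeleton genes 2 rose and 3 fell (median −0.22), near the shares of all tested genes (6.96% and 16.0%). With the same sum of RPKM 2 were higher and 13 lower, and after median centring 3 were higher and 3 lower. Tubb3, a tubulin best known from neurons, had 1.4 and 1.07 RPKM in the control libraries and 7.25 and 7.89 RPKM in the LAMZ libraries, a log2 change of 1.95 ± 0.16 (adjusted p = 0.000174 from limma). Tubb2a had 91.1 and 97.7 RPKM in the control libraries and 42.2 and 33 RPKM in the LAMZ libraries, a log2 change of −1.32 ± 0.16 (adjusted p = 0.00122 from limma). Of 20 neural and Schwann cell markers 7 were tested (median −0.50, with 1 higher and 3 lower at the same sum of RPKM and 2 higher and 1 lower after median centring), and apart from Tubb3 the only call was the fall of Ngfr (−1.03).

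A survey without chosen lists grouped the tested genes by the letters that open their symbols. Of 139 such stems with at least 10 genes, mitochondrial and ribosomal stems not counted, the highest medians belonged to Snhg (6 higher and 0 lower of 13, median 0.95), Itga (3 higher and 1 lower of 10, median 0.27), Alg, the enzymes that build N-glycans (1 higher and 1 lower of 11, median 0.23), Eif (10 higher and 1 lower of 53, median 0.18) and Hspa (3 higher and 2 lower of 11, median 0.18). Over all tested genes 6.96% were higher and 16.0% lower, and 1 call in each direction is too few to set Alg apart from these shares. After rescaling to the same sum, the medians of Itga, Alg, Eif and Hspa were below 0 (−0.048, −0.11, −0.13 and −0.14) and only that of Snhg stayed above it. The lowest medians belonged to Ccl (0 higher and 9 lower of 11, median −2.47), Clec, which are C-type lectins (1 higher and 6 lower of 10, median −1.28), C, which holds complement genes (1 higher and 17 lower of 29, median −0.94), Il (1 higher and 13 lower of 22, median −0.87) and S, which holds the S100 proteins (1 higher and 7 lower of 12, median −0.87). These 5 stayed below 0 under all 3 other scalings. The medians of 21 lists under the 4 scalings were plotted.

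**Figure D4:**
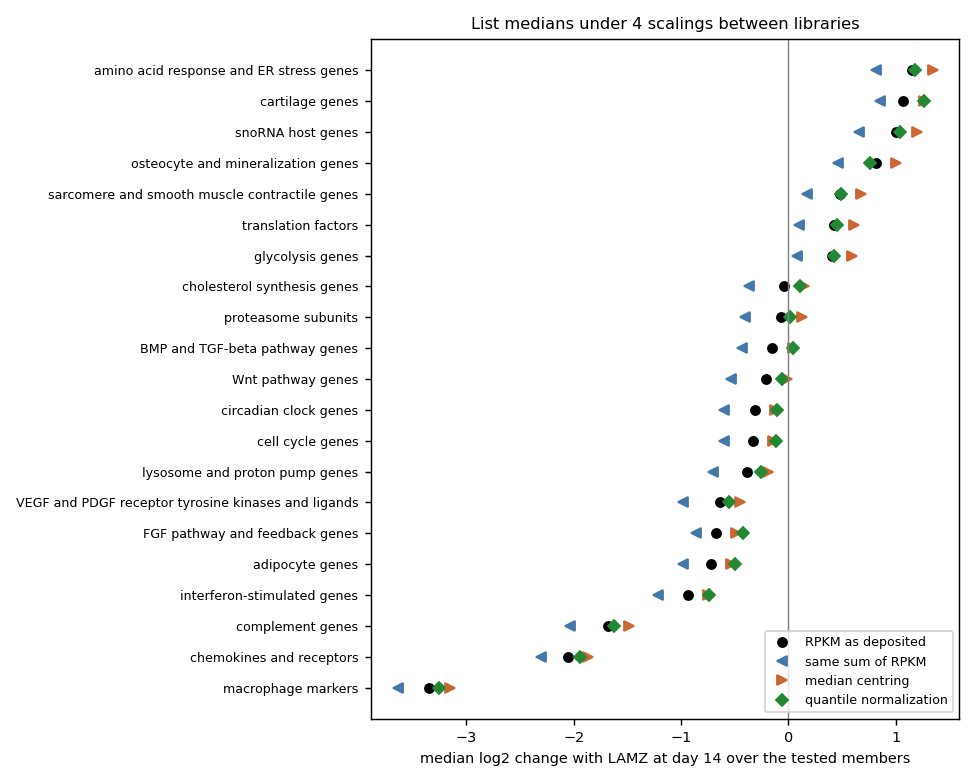
Median log2 change at day 14 over the tested members of 21 gene lists, with RPKM as deposited (circles), after rescaling to the same sum of RPKM (left triangles), after median centring (right triangles) and after quantile normalization (diamonds). The amino acid response list stays between 0.82 and 1.35 and the macrophage markers between −3.64 and −3.16, while lists near 0, such as the proteasome subunits, change sign.

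A larger or smaller change at day 14 than at day 7 was tested for each gene. The difference passed for 78 genes (0.623%), of which 39 moved up and 39 down. The count depended on the libraries and the settings. It was 5 without the first control library of day 14, 0 without the second, 2 without either LAMZ library, 0 without a filter on low values, 34 with a pseudocount of 0.1 and 166 with a pseudocount of 5. At an unadjusted p under 0.05, 2061 genes passed. Of the named genes that were called for the difference, Cdsn and Avil passed without 3 of the 4 libraries and Ndnf without 1, and the adjusted p of the others lay between 0.0651 and 0.173 with any 1 left out. Among the genes that passed, the largest positive differences were those of Cdsn, at 5.24 ± 0.36 (adjusted p = 0.00587 from limma), Avil, at 3.65 ± 0.27 (adjusted p = 0.00587 from limma), Mir758, at 3.23 ± 0.30 (adjusted p = 0.0198 from limma), Car6, at 3.04 ± 0.36 (adjusted p = 0.0258 from limma), and Gpr84, at 2.55 ± 0.30 (adjusted p = 0.0257 from limma). Mir758 was at 0 in all 4 libraries of day 14, so its difference comes from day 7 alone. RPKM is scaled to gene length, so the values of a short gene such as this microRNA can rest on few reads. Gpr84, a receptor of fatty acids that myeloid cells express, had 0.24 and 0.428 RPKM in the control libraries and 4.65 and 5.02 RPKM in the LAMZ libraries at day 14. The largest negative differences among them were those of Hist1h2bp, at −3.15 ± 0.46 (adjusted p = 0.0369 from limma), Sfrp1, Thbs4, at −2.02 ± 0.19 (adjusted p = 0.0198 from limma), Sgms2, at −1.96 ± 0.32 (adjusted p = 0.0476 from limma), and Ndnf, at −1.92 ± 0.21 (adjusted p = 0.0243 from limma). Thbs4, a thrombospondin, had 12.3 and 10.3 RPKM in the control libraries and 3.65 and 2.93 RPKM in the LAMZ libraries at day 14 and changes of −1.52 at day 14 and 0.50 at day 7. Sgms2, a sphingomyelin synthase, was not called at day 14 (−0.29) and had risen at day 7 (1.67). Among the amino acid response genes, those called for the difference were Atf4, Atf5, Wars, Asns, Phgdh, Slc7a3, Hspa5, Herpud1 and Hyou1. Atf5, a relative of Atf4, had 52.8 and 46.9 RPKM in the control libraries and 77 and 87 RPKM in the LAMZ libraries at day 14, where it rose by 0.71, and had fallen at day 7, with a change of −0.54. The changes of all tested genes on both days were plotted.

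**Figure D5:**
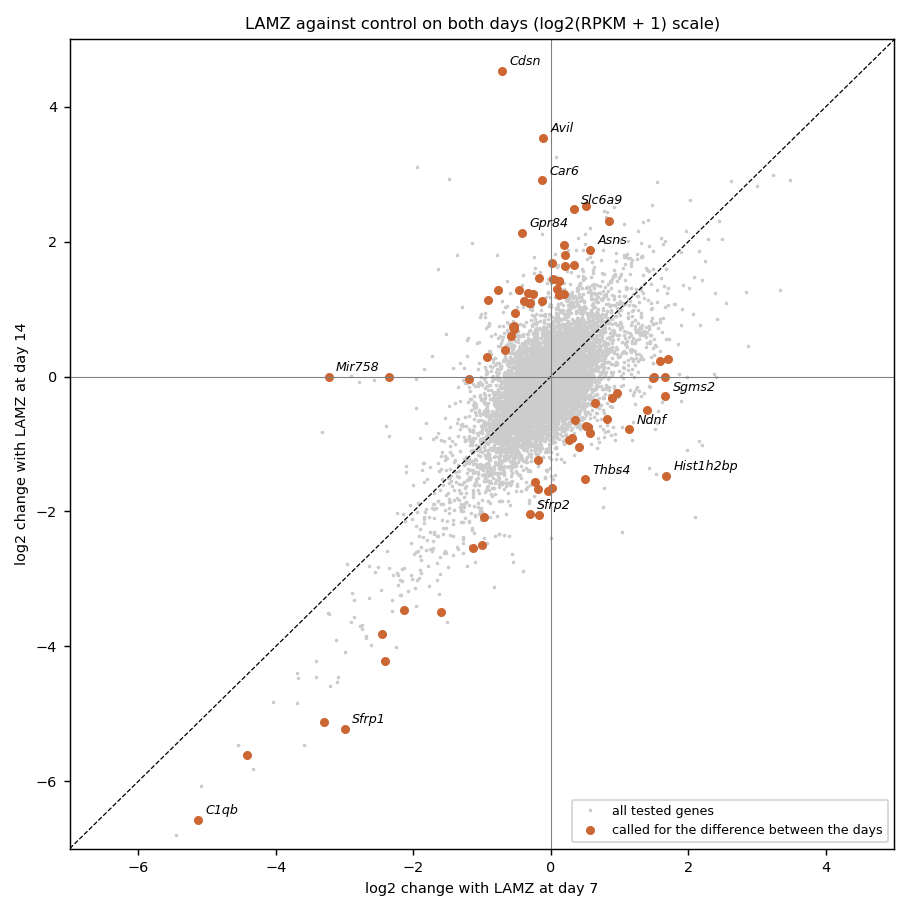
Log2 change with LAMZ at day 14 (vertical) against that at day 7 (horizontal) for the 12514 tested genes (grey), with the 78 genes called for the difference between the days in colour and a dashed line where both changes are equal. Cdsn, Avil and Car6 stand high near a day 7 change of 0, with day 14 changes of 4.53, 3.54 and 2.91.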

How the data were processed

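RNA sequencing libraries of mouse osteoblastic cells, 2 each for control and LAMZ at day 7 and day 14, were read from deposited tables of RPKM, 1 per library. According to the methods, the authors isolated total RNA, sequenced it on an Ion Proton and computed RPKM in CLC Genomics Workbench, and the processing notes name mm10. Counting parameters, strand setting and annotation release were not given in the sources used here. Rows that name no gene were left out, and 0 columns lacked a sample.

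The 12514 genes that reached an RPKM of 1 in 2 or more of the 8 libraries were kept. Changes were fitted on log2(RPKM + 1) with limma 3.58.1 in R 4.3.3 (moderated variance with a mean trend) over all 4 groups, with contrasts for each day and for their difference, and p values adjusted by Benjamini-Hochberg over all tested genes. Because low RPKM values step by the worth of 1 read, mapped reads per library and reads per gene were recovered, with 94.8% to 96.3% of the low values of the day 14 libraries within 0.05 of a whole read. The steps were tested on simulated counts with a fixed spread between libraries that was not fitted to these data. There, 12% of genes with a log2 change of 0.5 and 82% of those with a change of 1 were called. A small change can therefore go uncalled. Coordinates and overlapping genes came from GENCODE M21 and promoter windows from RefSeq, both on GRCm38, the assembly of mm10.

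Alternatives were other pseudocounts, filters and scalings, the replicate block, day 14 alone, no trend, leaving out each library, and, added after the data were seen, voom on the recovered reads. The gene lists and the rule for named genes were chosen with earlier results of these data known, so no list is independent support for its direction. The rule named genes that the study measured, the 15 largest rises and falls (mitochondrial, ribosomal protein and matrix genes and Gm or Rik symbols not counted), up to 4 called members of each list with the largest changes and the 5 largest differences in each direction. Other list members named for their role, and the groups of synthetases and of amino acid response genes, were chosen after their values were seen. A few genes that the rule names are not reported here. Floors are 3 reads per library and cover counting error only.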

Additional observations from a re-analysis of the deposited data

Results flagged for a closer look

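The genes given here passed the limma test of the difference between the days, which is the log2 change at day 14 minus that at day 7. Each value is that difference, and groups of 2 libraries were not tested for a library that stands apart. The number of genes that pass this test fell from 78 to between 0 and 5 when any 1 library of day 14 was left out.

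Genes with a low level at day 7 in both groups and a rise at day 14 had the largest differences. The difference was 5.24 for Cdsn, which at day 7 had 1.58 and 2.59 RPKM in control and 0.613 and 1.15 RPKM with LAMZ. It was 3.65 for Avil, which at day 7 had 1.64 and 1.36 RPKM in control and 1.59 and 1.07 RPKM with LAMZ, and 3.04 for Car6, which at day 7 had 0 and 0.318 RPKM in control and 0 and 0.106 RPKM with LAMZ. For Mir758 the value of 3.23 came from day 7, where it had 9.82 and 7.13 RPKM in control and 0 and 0 RPKM with LAMZ, since it was at 0 throughout at day 14. Among the amino acid response and ER stress genes the difference was 1.59 for Phgdh, 1.48 for Wars, 1.43 for Hspa5, 1.31 for Asns, 1.30 for Hyou1, 1.29 for Herpud1, 1.25 for Atf5 and 1.04 for Atf4. Other positive differences were 2.55 for Gpr84, 2.14 for Slc6a9, 2.05 for Mt2, 2.02 for Slc7a3, 1.75 for Tubb3, 1.64 for Pdgfb, 1.46 for Slpi and 1.31 for Eif4ebp1.

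A larger fall, or a rise that was lost, gave the negative differences. Hist1h2bp, a histone gene whose reads may be shared with its copies, had −3.15, and at day 7 34.9 and 17.2 RPKM in control and 85.4 and 76.4 RPKM with LAMZ. Sfrp1 had −2.22, and at day 7 111 and 78.7 RPKM in control and 9.92 and 11.9 RPKM with LAMZ. Thbs4 had −2.02 and Sgms2 −1.96. Other negative differences were −1.92 for Ndnf, −1.73 for Sfrp2, −1.67 for Cyp26b1, −1.44 for C1qb, −1.37 for Egfl6 and −1.33 for Vegfd. For C1qb both LAMZ libraries of day 14 held no read, so its log2 change there is set by the pseudocount of 1 and by the control level.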

How the results depend on the processing

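Of 2878 genes called at day 14, the count stayed within 1.5 times under 10 of the 15 other settings chosen at the outset and with voom on the recovered reads, which was added after the data were seen. Rescaling to the same sum of RPKM gave 5796 calls, 473 higher and 5323 lower, and median centring gave 1608 higher and 1249 lower. Leaving out 1 library of day 14 gave 1512 to 1773 calls, 470 to 613 higher and 1033 to 1291 lower, and kept 50.4% to 63.6% of the calls in a direction with none of opposite sign. The lone library of a group is then assumed to vary like the other groups. With quantile normalization 2 of the 871 genes that rose changed sign. The count at day 7 was 1607, and it became 951 without a filter on low values, 3592 with the same sum of RPKM and 984 with a replicate block within each day. The difference between the days, with 78 genes, gave 34 with a pseudocount of 0.1, 166 with a pseudocount of 5, 0 without a filter, where 29944 genes were tested, 133 with a filter at RPKM 5, 30 without the mean-variance trend, 336 with voom and 0 to 5 without 1 library of day 14. The cause was not tested. Replicate numbers shared by the groups did not pair the libraries, as the correlation of deviations from the group means was −0.017 at day 7 and 0.016 at day 14. With the replicate block 841 genes rose and 1859 fell at day 14, and 17 were called for the difference, or 7 with a block within each day.

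Of the 189 called genes named in the text, none changed sign under any setting, and 26 to 31 lost their call without 1 library. Those named without their p value were Atf5, Dbp, Dlk1, Dlx3, Dlx5, Egln3, Fgfr3, Gla, Hist1h2bp, Id2, Id3, Id4, Igf2, Ihh, Jup, Krt19, Lif, Mt2, Ndnf, Psme1, Psme2, Ptch1, Ptger1, Spry4, Tcf7, Tgfbi and Xist, with adjusted p values from limma of 0.0508 to 0.179 without a library. Calls were also lost by 16 of them without the filter on low values (Ackr3, Acta2, Adipoq, Axin2, Calm2, Dlx5, Egr1, Hist1h2bp, Id2, Id4, Igf2, Lif, Ptger1, Sox9, Tcf7 and Tnfsf11), by 9 with the same sum of RPKM (Calm2, Dlx3, Dlx5, Igf2, Mef2c, Ptch1, Tcf7, Tgfbi and Tnfsf11), by 7 with quantile normalization (Axin2, Calm2, Id2, Id4, Igf2, Ptger1 and Sox9) and by 6 with median centring (Axin2, Egr1, Id2, Id4, Ptger1 and Sox9), and by at most 6 under any other setting. Several genes that were not called turned sign. With the same sum of RPKM the change was −0.15 for Canx, −0.18 for Cebpb, −0.16 for Cebpg, −0.13 for Runx2 and −0.27 for Tnfrsf11b. With median centring and quantile normalization it was 0.14 and 0.17 for Ddx3y and 0.11 and 0.10 for Iars2. Without 1 library it ranged from −0.084 to 0.42 for Cebpb, from −0.058 to 0.35 for Cebpg, from −0.24 to 0.14 for Ddx3y, from −0.17 to 0.00093 for Iars2 and from −0.17 to 0.31 for Tnfrsf11b.

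With 2 libraries in each group no single gene can reach p = 0.05 in an exact permutation test, whose smallest p is 0.333, so each call rests on the spread that limma pools over genes and groups. At 4520850 to 5832117 mapped reads, genes with few reads are limited by counting, and a value of 0 allows up to 3 reads.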
